A study of Mus musculus with 2 samples.

Results

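The neurons described here were 389 cells of a single cell RNA sequencing (scRNAseq) library made from the whole telencephalic vesicle of 3 wild-type C57BL/6J mouse embryos at embryonic day (E) 12 by the labels and between E11.5 and E12 by the methods. They carried neuronal RNA, RNA of the GABA-synthesising enzymes encoded by *Gad1* and *Gad2*, and at least 1 molecule of *Lhx6* or *Nkx2-1*. *Lhx6* and *Nkx2-1* encode the transcription factors that mark neurons born in the medial ganglionic eminence (MGE) and its neighbours in the ventral telencephalon. Each RNA molecule caught in a droplet carries a unique molecular identifier (UMI), so that all values below are counts of UMIs. The cells were chosen by counts alone, in this order. A barcode needed at least 2500 UMIs and under 6% of them from mitochondrial genes, which 11498 of 14283 barcodes of the library met. The UMIs of 6 neuronal genes (*Tubb3*, *Stmn2*, *Dcx*, *Elavl3*, *Gap43* and *Mapt*; N) then had to exceed those of 7 progenitor genes (*Sox2*, *Hes1*, *Hes5*, *Vim*, *Nes*, *Fabp7* and *Slc1a3*; A), which left 2755 neurons. Of these, 880 held at least 2 UMIs of *Gad1* and *Gad2* together and are called GABAergic neurons. Those with no UMI of *Tbr1*, a transcription factor of glutamatergic neurons, and at least 1 UMI of *Lhx6* or *Nkx2-1* were the *Lhx6*/*Nkx2-1* neurons, and the other 491 GABAergic neurons were the group they were compared with. They made up 44.2% of GABAergic neurons (exact Clopper-Pearson 95% interval 40.9 to 47.6%), 14.1% of neurons and 3.38% of all barcodes that passed the filters.

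The series holds 20110 barcodes in 2 libraries. The second library came from explants around the septum, pooled from 8 E11.5 *PGKCre;Rosa26YFP* and 4 E12.5 *Dbx1Cre;Rosa26tdTomato* embryos, all labelled wild-type, and the same rule found 34 such neurons there. *PGKCre* labels cells broadly and *Dbx1Cre* labels cells with a history of *Dbx1* expression, so that these embryos carried Cre and reporter alleles that the embryos of the telencephalic library did not. The 3 embryos of the telencephalic library came from 2 litters and were pooled, so that embryos cannot be told apart. With 1 library per tissue there was no test between samples, and intervals here cover counting error only. They do not cover the spread between cells or between embryos.

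In the embryonic ventral telencephalon, *Shh* signalling from the floor maintains *Nkx2-1* in progenitors of the MGE and the preoptic area. *Nkx2-1* is needed for *Lhx6* and *Lhx8* to be expressed in the neurons these progenitors make. Cells that keep *Lhx6* include the cortical interneurons that migrate dorsally and later become parvalbumin or somatostatin interneurons, while neurons that keep *Nkx2-1* or *Lhx8* stay ventrally and include interneurons and cholinergic neurons of the striatum and basal forebrain. The lateral ganglionic eminence (LGE), in contrast, makes striatal projection neurons with *Isl1*, *Ebf1* and *Meis2*, and olfactory bulb interneurons with *Sp8* and *Pax6*.

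The following sequences are shown because they belong to the genes the comparison turned on. Gene positions are those of GENCODE M21 on GRCm38 (mm10) and start windows are those of RefSeq on GRCm38.p6. *Lhx6* (ENSMUSG00000026890) lies on the minus strand at chr2:36081953-36105408 and *Nkx2-1* (ENSMUSG00000001496) on the minus strand at chr12:56531958-56536908. Of the 3 start windows that RefSeq gives for *Lhx6*, each running from 250 bases before a transcription start to 50 bases after it, 1 held TNAAGTG, the core letters that factors of the Nkx2 family prefer, searched on both strands. The same letters stood in 3790 of all 32851 start windows (11.54%), in 3 of 6 windows of *Sox6*, 1 of 2 of *Ebf1* and none of the single windows of *Lhx8*, *Nkx2-1*, *Gad2*, *Erbb4*, *Isl1* and *Meis2*, and a match shows neither binding nor use. The match lay 127 bases before the start, at chr2:36104176-36104205 on the minus strand, with the matched letters in capitals.
Lhx6 start window: agagccacgggTTAAGTGcagggagagggg
*Lhx8* (ENSMUSG00000096225, minus strand, chr3:154306294-154330659) and the noncoding gene *AI606473* (ENSMUSG00000093738, plus strand, chr3:154330821-154334254) are head to head, 161 bases apart, and both were among the genes with the highest folds in the *Lhx6*/*Nkx2-1* neurons. The stretch between them, from the base before the annotated *Lhx8* gene to 10 bases short of *AI606473*, is chr3:154330660-154330810, given 5′ to 3′ on the strand of *Lhx8*.
Stretch upstream of Lhx8: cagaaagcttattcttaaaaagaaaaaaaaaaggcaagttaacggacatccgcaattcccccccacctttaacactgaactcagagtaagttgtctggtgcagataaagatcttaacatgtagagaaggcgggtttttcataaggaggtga

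The genes that chose the neurons describe them but support nothing further. *Lhx6* had a median of 1 UMI per cell (lowest 0, highest 9) and *Nkx2-1* a median of 2 (lowest 0, highest 25). A UMI of both was found in 176 neurons, of *Nkx2-1* without *Lhx6* in 155, and of *Lhx6* without *Nkx2-1* in 58. At these depths a cell without a UMI may still express the gene, so that the 3 classes are classes of detection. *Gad2* had a median of 5 UMIs per cell in the *Lhx6*/*Nkx2-1* neurons as in the other GABAergic neurons, and *Dlx5* a median of 2 against 3. Of these markers only *Dlx5*, a homeobox gene of GABAergic precursors, was not used by the rule, and it was detected in 87.4% of the *Lhx6*/*Nkx2-1* neurons. Both groups were similar in depth, with a median of 7106 UMIs and 2921 genes per *Lhx6*/*Nkx2-1* neuron and 7545 UMIs and 3062 genes per other GABAergic neuron. Their summed UMIs were 3618619 and 4679386. Levels below are counts per 1000000 UMIs (CPM) of these sums, and a fold is the ratio of CPM between groups with an exact 95% interval.

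A single UMI could be read only with limits, because other cell groups held UMIs of the same genes. Free RNA in the droplets and barcodes that hold 2 cells can both give such UMIs, and the part of each was not tested. *Nkx2-1* was found in 4.46% of 1054 *Tbr1* neurons without *Gad1* and *Gad2* (median 7445 UMIs) and in 7.36% of 774 non-neural cells (median 10739 UMIs), which are not known to use it. For *Lhx6* these shares were 0.0949% and 0.646%. Of the *Lhx6*/*Nkx2-1* neurons, 70 just met the rule with 1 UMI of *Lhx6* and *Nkx2-1* together and 319 held 2 or more. *Lhx8*, which the rule did not use, stood at 520 CPM in the former and 566 CPM in the latter, with a UMI in 71.4% and 87.5% of cells. *Meis2* stood at 611 and 312 CPM and *Ebf1* at 255 and 46.1 CPM, so that the neurons with a single UMI were nearer to the other GABAergic neurons in these genes. Just outside the rule lay 45 neurons that met all criteria but held 1 UMI of *Gad1* and *Gad2*, with *Lhx8* at 418 CPM and *Dlx5* at 356 CPM, and 124 that held none, with *Lhx8* at 83.6 CPM.

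Scrublet, which finds barcodes that resemble a mix of 2 cells, marked 41 of the 389 neurons (10.5%) and 42 of the other 491 (8.55%), and these cells were kept. Globin RNA of red blood cells was present in every cell of both groups, at a sum of 6990 CPM over 7 genes in the *Lhx6*/*Nkx2-1* neurons and 6639 CPM in the others. *Hbb-y* was the most abundant of them, at 3828 and 3825 CPM. None of the 7 differed by 2-fold. Of 5 endothelial genes, *Cdh5*, *Cldn5*, *Kdr* and *Flt1* had no UMI in the *Lhx6*/*Nkx2-1* neurons, which allows up to 0.829 CPM each, and *Pecam1* stood at 1.93 CPM. The sum of 5 macrophage genes was 11.3 against 0.427 CPM, led by *C1qb*, and 2 neurons held at least 5 of these UMIs. The sum of 6 mesenchyme genes was 61.6 against 78.0 CPM, led by *Col3a1*.

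Across all genes, the *Lhx6*/*Nkx2-1* neurons differed from the other GABAergic neurons in few genes. Of 10421 genes with at least 50 UMIs in both groups together, 131 (1.26%) were at least 2-fold higher and 176 (1.69%) at least 2-fold lower, and the median fold was 0.996. The genes of the rule, mitochondrial genes and sex-linked genes (*Xist*, *Tsix* and 4 genes of the Y chromosome) were left out. The rule itself fixed part of these differences, since every GABAergic neuron with a UMI of *Tbr1* fell in the comparison group, also the 19 that held *Lhx6* or *Nkx2-1*.

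The highest folds belonged to *Lhx8*, *Shh*, *Gbx1* and *Gbx2*, and to transcripts beside *Nkx2-1*, *Lhx8* and *Shh*. *Lhx8*, which encodes a LIM homeodomain factor needed for cholinergic neurons of the basal forebrain, stood at 559 CPM in the *Lhx6*/*Nkx2-1* neurons (exact Poisson 95% interval 535 to 584) and at 37.0 CPM in the other GABAergic neurons (31.7 to 42.9), a fold of 15.1 (12.9 to 17.8). A UMI of it was found in 84.6% of *Lhx6*/*Nkx2-1* neurons, in 11% of other GABAergic neurons and in 1.04% of *Tbr1* neurons. *Shh*, the secreted ligand of the Hedgehog pathway, stood at 116 CPM (105 to 127) against 6.84 CPM (4.68 to 9.65), with a UMI in 41.4% against 3.87% of cells, and in 0.38% of *Tbr1* neurons. Its fold was 16.9 (11.8 to 25). *Gbx1*, a homeobox gene, stood at 60.8 against 6.62 CPM with a fold of 9.18 (6.28 to 13.8), and the related *Gbx2* at 19.9 against 2.35 CPM with a fold of 8.46 (4.46 to 17.7). For these 4 genes, the intervals of both groups were far apart. The size of the folds moved beyond these intervals with the cells compared, with 6.53 to 24.2 for *Lhx8* over the alternatives tried, 8.57 to 24.2 for *Shh*, 4.35 to 14.4 for *Gbx1* and 3.76 to 57.8 for *Gbx2*. The lowest value of *Lhx8* was that with at least 2 UMIs of *Lhx6* and *Nkx2-1* required, which places the cells with 1 UMI in the comparison group.

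**Figure D1:**
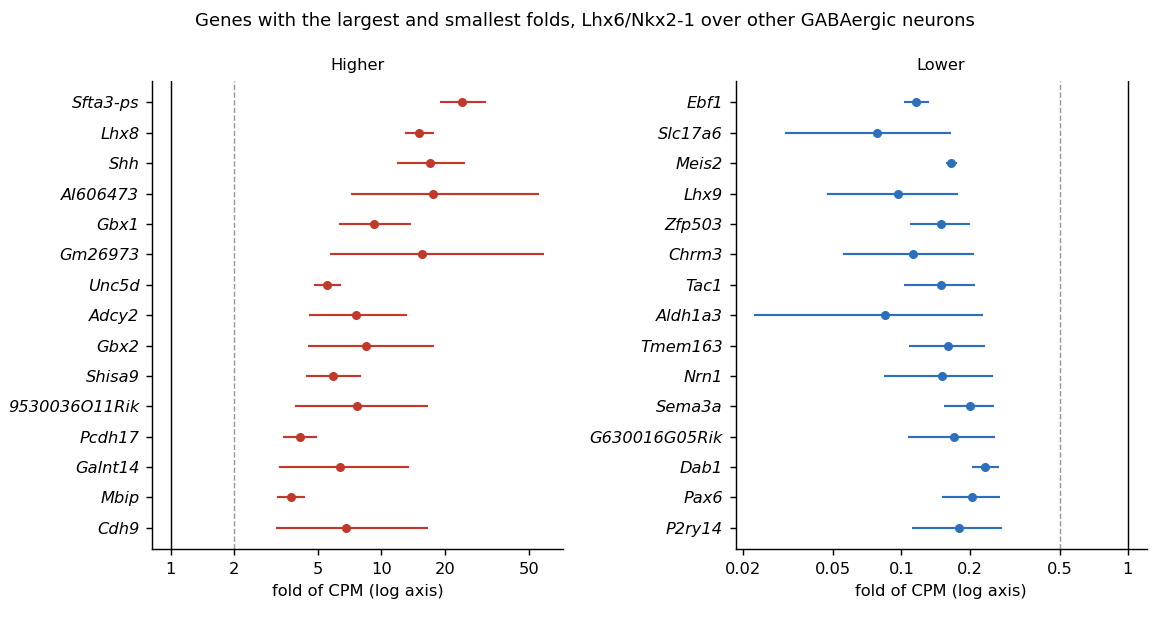
Folds of CPM (log axis) with exact 95% counting intervals for the 15 genes with the highest and the 15 with the lowest folds in the *Lhx6*/*Nkx2-1* neurons over the other GABAergic neurons, ordered by the interval bound nearest 1; the solid line marks a fold of 1 and the dashed lines folds of 2 and 0.5. The interval of every gene shown lies beyond its dashed line, and the intervals of *AI606473* (7.18 to 55.9) and *Gm26973* (5.68 to 59.3) are the widest on the higher side.

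Several of the highest folds came from genes that lie beside *Nkx2-1*, *Lhx8* or *Shh*, and *Gm26973* and *9530036O11Rik* overlap their neighbour. *Sfta3-ps*, a noncoding gene 2.53 kb downstream of *Nkx2-1* on the same strand, stood at 356 against 14.7 CPM, a fold of 24.2 (19.0 to 31.3, and 12.1 to 55.2 over the alternatives). *Gm26973*, on the opposite strand, overlaps *Nkx2-1* by 1566 bases and stood at 13.3 against 0.855 CPM. Since *Nkx2-1* chose the cells, neither is independent of the rule. *Mbip*, a protein-coding gene 186 kb from *Nkx2-1*, stood at 182 against 48.9 CPM, a fold of 3.71 (3.19 to 4.33). *AI606473* beside *Lhx8* stood at 18.8 against 1.07 CPM, a fold of 17.6 (7.18 to 55.9), and *9530036O11Rik*, which overlaps *Shh* on the opposite strand by 8983 bases, at 16.3 against 2.14 CPM, a fold of 7.63 (3.87 to 16.7). How reads in such overlaps were assigned was not given in the sources used here. The other 6 genes of the 15 highest by the interval bound nearest 1 were *Unc5d*, which encodes a netrin receptor (263 against 47.7 CPM, fold 5.51), *Adcy2*, an adenylyl cyclase (fold 7.54), *Shisa9*, a partner of AMPA receptors (fold 5.88), *Pcdh17*, a protocadherin (133 against 32.5 CPM, fold 4.11), *Galnt14*, a glycosyltransferase (fold 6.35), and *Cdh9*, a cadherin (fold 6.79). With rule and counts thinned to 4500 UMIs per cell, the fold of *Adcy2* was 2.49, that of *Unc5d* 2.87 and that of *Gm26973* 3.79. Over the alternatives *AI606473* lay between 7.08 and 80, *9530036O11Rik* between 4.8 and 23.3, *Gm26973* up to 54.9, *Pcdh17* up to 9.41, *Galnt14* up to 10.6 and *Cdh9* down to 3.95, all above 2-fold.

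Of the 15 genes with the lowest folds, 5 were on the list of striatal and other LGE genes (*Ebf1*, *Meis2*, *Zfp503*, *Tac1* and *Pax6*). *Ebf1*, a transcription factor of striatal projection neurons, stood at 77.1 CPM in the *Lhx6*/*Nkx2-1* neurons against 662 CPM in the others, a fold of 0.116 (0.103 to 0.132), with a UMI in 4.63% against 24.8% of cells. *Meis2*, a homeodomain factor of LGE neurons, stood at 357 against 2148 CPM, a fold of 0.166 (0.157 to 0.176), and in 37.0% against 91.6% of cells. *Zfp503* (fold 0.149), *Tac1*, which encodes the precursor of substance P (fold 0.149), *Pax6* (fold 0.205), *Aldh1a3*, an enzyme of retinoic acid synthesis (fold 0.0848), and *Sema3a*, a repulsive guidance cue (fold 0.200), were lower as well. So was *G630016G05Rik* (fold 0.170), a noncoding gene 1.39 kb from *Meis2* on the opposite strand. *Chrm3* (fold 0.113), *Dab1*, an adaptor of Reelin signalling (fold 0.234), and *P2ry14* (fold 0.179), which lies inside *Med12l* on the opposite strand, completed the 15 together with *Slc17a6*, *Lhx9*, *Tmem163* and *Nrn1*.

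For *Slc17a6*, which encodes a vesicular glutamate transporter, the low fold went with *Tbr1*. It stood at 1.93 CPM in the *Lhx6*/*Nkx2-1* neurons and 24.8 CPM in the other GABAergic neurons, but at 164 CPM in the 35 of these that held *Tbr1*, of which Scrublet marked 40.0%, and at 2.21 CPM in the 345 without *Tbr1* that held *Isl1* or *Ebf1*. Without the *Tbr1* criterion its fold turned to 1.90, that of *Tmem163* to 1.56 and that of *Nrn1* to 1.04. The fold of *Lhx9* (0.0961) was 0.731 without that criterion, no longer past 2-fold. *Tmem163* also turned, to 1.37, when other GABAergic neurons with *Tbr1*, *Lhx6* or *Nkx2-1* were left out. The folds of *Ebf1* (0.0505 to 0.141) and *Meis2* (0.0847 to 0.175) stayed below 0.5 under every alternative tried.

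Among 13 transcription factor genes of the MGE lineage, 12 had at least 50 UMIs, of which 4 were at least 2-fold higher (1.26% of all genes were), none at least 2-fold lower (1.69% of all genes were), and the median fold was 1.53, against 0.996 over all genes. The 4 were *Lhx8*, *Gbx1*, *Gbx2* and *Sox6*. The first 3 are also among the 15 highest folds above. This list and those below were chosen with earlier results of these data known, so that their counts are description only. *Sox6*, which encodes an SRY-box factor needed in postmitotic MGE interneurons, stood at 692 against 340 CPM, a fold of 2.03 (1.91 to 2.17), which lay between 1.96 and 3.01 over the alternatives. *Zic1*, a zinc finger gene of the septum and ventral forebrain, stood at 230 against 116 CPM, a fold of 1.99 (1.78 to 2.22). *Maf*, a factor of migrating interneurons, stood at 14.6 against 8.55 CPM (fold 1.71, 1.12 to 2.65). *Satb1*, a chromatin organiser of maturing interneurons, stood lower, at 58.6 against 83.1 CPM (fold 0.705, 0.593 to 0.835), as did *Zeb2* at 213 against 358 CPM (fold 0.594, 0.544 to 0.647).

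Among 18 striatal and LGE genes, 14 had at least 50 UMIs, of which 8 were at least 2-fold lower (1.69% of all genes were), none at least 2-fold higher (1.26% of all genes were), and the median fold was 0.438. The 8 were *Ebf1*, *Meis2*, *Zfp503*, *Tac1*, *Pax6*, *Isl1*, *Sp8* and *Gsx2*. *Sp8*, of olfactory bulb interneurons, stood at 26.8 against 93.8 CPM and *Gsx2*, of LGE progenitors, at 11.9 against 29.9 CPM (fold 0.397, which was 0.613 in the cells with a Y-linked UMI and no *Xist* UMI). *Isl1*, of striatal and cholinergic neurons, stood at 167 CPM (154 to 181) against 348 CPM (332 to 366), a fold of 0.479 (0.501 in cells with *Xist* and no Y-linked UMI), and was detected in 42.4% of the *Lhx6*/*Nkx2-1* neurons. In non-neural cells and in *Tbr1* neurons, its share was 1.16% and 1.33%. The part of free RNA and of doublets in the *Isl1* share of the *Lhx6*/*Nkx2-1* neurons was not tested. *Foxp1* (220 against 213 CPM, fold 1.03) and *Sp9*, a zinc finger gene of the ganglionic eminences (304 against 228 CPM, fold 1.33), did not stand lower.

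The genes of the GABAergic programme did not set the groups apart. All 5 *Dlx* genes measured were within 2-fold, with a median fold of 0.853, as with *Dlx2* at 292 against 308 CPM (fold 0.947, 0.874 to 1.03) and *Dlx6os1* at 808 against 788 CPM. All 4 genes of GABA transport and metabolism were within 2-fold with a median of 1.10, including *Slc32a1*, the vesicular GABA transporter, at 99.2 against 87 CPM. Of 11 neuronal maturation genes, 1 was at least 2-fold lower (1.69% of all genes were), namely *Rbfox3* (11.1 against 29.3 CPM, fold 0.378, which was 0.743 without the *Tbr1* criterion), and 6 had an interval below 1, as with *Nefm* (fold 0.624). Of 11 cell cycle genes none differed by 2-fold. *Mki67*, of dividing cells, stood at 100 against 92.7 CPM and was detected in 26.5% of the *Lhx6*/*Nkx2-1* neurons. It was also detected in 23.1% of *Tbr1* neurons, so that its share in the *Lhx6*/*Nkx2-1* neurons was not read as division. Of 10 subpallial neurogenic genes, 8 were measured, of which none was at least 2-fold higher, 1 was at least 2-fold lower, and the median fold was 0.790. *Gadd45g* stood at 183 against 326 CPM (fold 0.561), while *Olig2* stood at 20.2 against 10.3 CPM (fold 1.97, 1.35 to 2.89), which turned to 0.907 with rule and counts thinned to 4500 UMIs per cell.

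Receptors that guide interneurons differed in both directions. Of 11, 9 were measured, of which 2 were at least 2-fold higher (1.26% of all genes were) and 2 at least 2-fold lower (1.69% of all genes were). *Erbb4*, the neuregulin receptor of MGE interneurons, stood at 1230 CPM (1194 to 1266) against 391 CPM (373 to 409), a fold of 3.14 (2.98 to 3.32). *Nrp1*, a semaphorin receptor, stood at 119 against 42.5 CPM (fold 2.79, 2.35 to 3.31), and its relative *Nrp2* at 32.9 against 70.9 CPM (fold 0.464, 0.373 to 0.573). The direction of *Nrp2* turned to 1.07 in the 79 neurons with a Y-linked UMI and no *Xist* UMI. *Unc5b* was also lower (fold 0.470, which was 0.670 in cells with *Xist* and no Y-linked UMI). *Robo1*, a Slit receptor, stood at 1306 against 1071 CPM. *Cxcr4*, the chemokine receptor of migrating interneurons, was near the limit of detection at 3.87 against 4.06 CPM, while *Ackr3* stood at 24.6 against 23.7 CPM, and *Met* had no UMI in either group. Of 9 ligands, 8 were measured and 3 were at least 2-fold lower, namely *Sema3a*, *Sema3c* (6.91 against 19.0 CPM) and *Slit1* (8.57 against 17.5 CPM). In the same 79 neurons the folds of *Sema3c* and *Slit1* were 0.937 and 0.885, no longer past 2-fold. *Nrg3* stood higher at 333 against 218 CPM (fold 1.52) and *Nrg1* lower at 262 against 345 CPM (fold 0.761).

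Genes of the Hedgehog pathway were measured for 6 of 8 members, with 2 at least 2-fold higher and none at least 2-fold lower. Beside *Shh*, *Ptch1*, a receptor that the pathway itself induces, stood at 143 against 91.3 CPM (fold 1.57, 1.38 to 1.79), and the transducer *Smo* at 56.9 against 55.8 CPM. The transcription factors *Gli2* (fold 0.580) and *Gli3* (fold 0.725) stood lower. *Gli1*, a target of strong signalling, stood at 1.38 against 1.28 CPM, and *Hhip* at 3.87 against 0.214 CPM with 14 and 1 UMIs. *Shh* and *Ptch1* both stood higher in the *Lhx6*/*Nkx2-1* neurons, but they parted within this group, as given below. Whether the 2 are linked was not tested, and the levels of *Gli1* were too low to compare.

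Markers of mature interneuron classes were largely undetected at this stage. *Pvalb* and *Vip* had no UMI in the 389 neurons, which allows a share of up to 0.771% of cells with a UMI for each, and *Sst*, of somatostatin interneurons, had 1 UMI against 32 in the other GABAergic neurons. *Npy* stood at 21.8 against 4.70 CPM (fold 4.64, 2.86 to 7.82) and was detected in 5.66% of cells, and *Calb1*, a calcium-binding protein, at 43.7 against 14.1 CPM (fold 3.1, 2.31 to 4.19) in 15.2%. With at least 2 UMIs of *Lhx6* and *Nkx2-1* required, the fold of *Calb1* was 1.88. *Calb2* was at least 2-fold lower, but it turned to 4.33 without the *Tbr1* criterion. *Chat*, of cholinergic neurons, had no UMI, and no cholinergic gene reached 50 UMIs. Of 10 hypothalamic and preoptic genes, *Nkx2-4* and *Nkx2-2* had no UMI in either group and *Rax* had 1 in the *Lhx6*/*Nkx2-1* neurons, while *Pomc* stood at 17.1 against 17.7 CPM and *Fezf1* at 5.25 against 12.4 CPM. The fold of *Fezf1* (0.424) turned to 1.33 in cells with a Y-linked UMI and no *Xist* UMI. It also turned without the *Tbr1* criterion and with rule and counts thinned.

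Of 10 protocadherin and cadherin genes, *Pcdh17* was at least 2-fold higher (1.26% of all genes were) and *Pcdh10* at least 2-fold lower (1.69% of all genes were, 21.8 against 51.1 CPM, fold 0.427), with a median fold of 0.907. *Pcdh8*, the protocadherin the study is about, stood at 13 CPM (9.54 to 17.3) against 17.3 CPM (fold 0.750, 0.512 to 1.09, which was 0.408 with rule and counts thinned), and *Cdh2* at 491 against 490 CPM. None of 8 nuclear receptor and LIM-domain genes was past 2-fold. *Lmo1* stood at 202 against 128 CPM (fold 1.59), and *Nr2f1* and *Nr2f2*, which encode COUP-TF factors of the caudal and lateral eminences, at folds of 0.657 and 0.640, which were 0.905 and 1.04 without the *Tbr1* criterion. All 5 measured genes of 9 pallial glutamatergic markers were at least 2-fold lower (1.69% of all genes were), with a median fold of 0.306, and of 4 Cajal-Retzius markers, *Lhx1* (fold 0.189) was. These lists moved with the *Tbr1* criterion. When it was dropped, the folds of *Neurod1*, *Eomes* and *Lhx1* turned to 1.84, 1.35 and 3.79 and that of *Emx1* was 0.690, no longer past 2-fold. Without the Scrublet doublets the fold of *Neurog2* was 0.872. Against other GABAergic neurons without *Lhx6*, *Nkx2-1* and *Tbr1*, *Lhx1* turned to 3.89.

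Other cell groups of the same library were compared next. In 1530 *Nkx2-1* progenitors, barcodes with N no larger than A and at least 2 UMIs of *Nkx2-1*, *Sfta3-ps* stood at 316 CPM and *Mbip* at 194 CPM, close to the 356 and 182 CPM of the *Lhx6*/*Nkx2-1* neurons. *Shh* stood at 49.7 CPM in these progenitors (47.3 to 52.2), below the 116 CPM of the neurons and above the 6.84 CPM of other GABAergic neurons. *Lhx8* stood at 12.9 CPM and *Gbx1* at 1.76 CPM in the progenitors, and both had their highest level of the groups compared in the *Lhx6*/*Nkx2-1* neurons. *Erbb4* and *Nrp1* were also highest there, at 1230 and 119 CPM against 322 and 12 CPM in the progenitors and 237 and 75.5 CPM in *Tbr1* neurons. *Pcdh17* was not, with 156 CPM in *Tbr1* neurons and 133 CPM in the *Lhx6*/*Nkx2-1* neurons. *Olig2* (117 CPM) and *Otx2* (185 CPM) were higher in the progenitors than in the neurons (20.2 and 56.7 CPM).

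**Figure D2:**
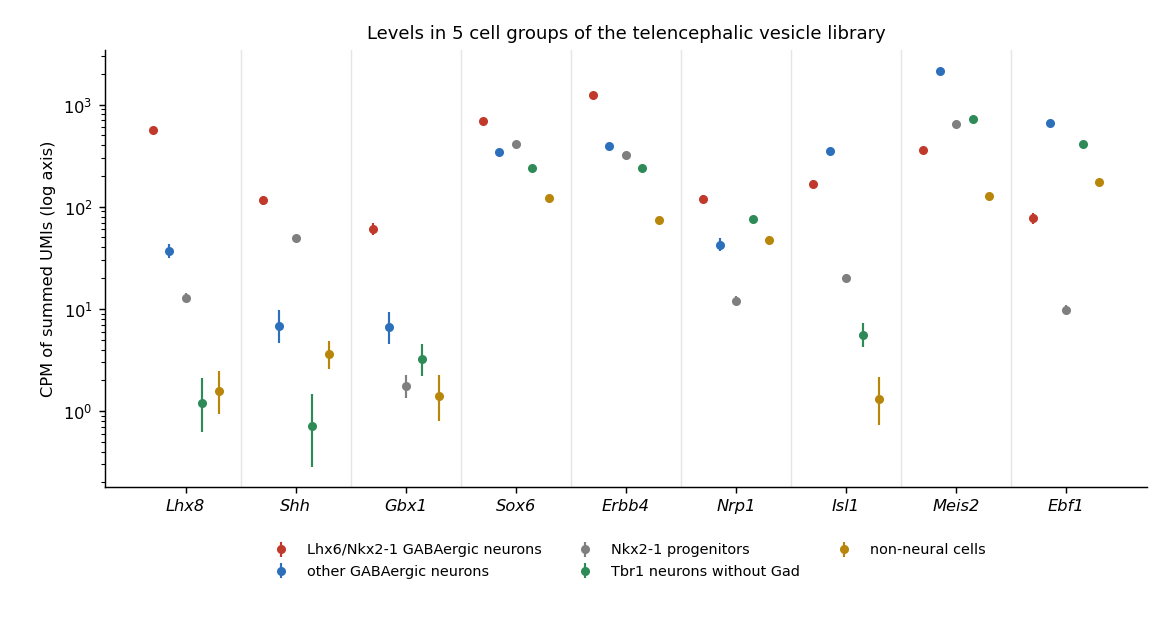
CPM of summed UMIs (log axis) with exact Poisson 95% intervals for 9 genes in 5 groups of cells of the telencephalic vesicle library; most intervals are smaller than the points. *Lhx8*, *Shh*, *Gbx1*, *Sox6*, *Erbb4* and *Nrp1* are highest in the *Lhx6*/*Nkx2-1* neurons (*Lhx8* at 559 CPM), and *Isl1*, *Meis2* and *Ebf1* are highest in the other GABAergic neurons (*Meis2* at 2148 CPM).

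The *Lhx6*/*Nkx2-1* neurons were not uniform along differentiation. They were divided into 4 bins of 97 or 98 cells by log2((N + 1)/(A + 1)), so that the genes of N and A describe the bins only. The median of this measure was 0.67 in bin 1 and 4.67 in bin 4. Between bin 4 and bin 1, 561 of 6558 genes (8.55%) were at least 2-fold higher and 963 (14.7%) at least 2-fold lower. Bin 1 was deeper, with a median of 12192.5 UMIs per cell against 6989 in bin 4, and Scrublet marked 34 of its 98 cells (34.7%) but none of the 97 in bin 4. Without the marked cells, 487 genes were higher and 537 lower, and with counts thinned to 4500 UMIs per cell 320 and 264, of fewer genes tested. Marker genes of other cells moved as well, since 7 globin genes summed to 2784 CPM in bin 1 and 5447 CPM in bin 4, and 6 mesenchyme genes, led by *Col3a1*, to 107 and 6.75 CPM. The part of doublets, depth and other cells in these counts was not tested further.

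*Lhx8*, *Shh* and *Gbx1* were higher in each later bin. *Lhx8* stood at 308, 553, 678 and 916 CPM from bin 1 to bin 4, and with thinned counts it was detected in 58.5%, 80.2%, 82.2% and 90.3% of cells. *Shh* stood at 37.8, 71.7, 166 and 255 CPM and was detected in 9.57%, 20.9%, 40.0% and 62.4% of thinned cells. *Gbx1* stood at 16.0, 23.5, 73.5 and 170 CPM, of which the first 2 do not differ beyond their intervals (10.0 to 24.2 and 13.9 to 37.1). Without the Scrublet doublets, bin 4 was above bin 1 by a fold of 2.45 (2.13 to 2.83) for *Lhx8*, 16.8 (9.20 to 34.3) for *Shh* and 13.7 (7 to 30.7) for *Gbx1*. *Sfta3-ps* and *Mbip* went the other way, from 405 to 180 CPM and from 233 to 85.1 CPM, while *Nkx2-1* itself stood at 341, 372, 372 and 286 CPM and *Lhx6* at 66.8, 192, 144 and 195 CPM. *Ptch1* did not rise with *Shh*, at 150 CPM in bin 1 and 138 CPM in bin 4 (fold 0.921, 0.719 to 1.17).

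Lists of genes also differed between bin 4 and bin 1. Of 7 measured interneuron migration receptors, 4 were at least 2-fold higher in bin 4 than in bin 1 (8.55% of all genes were) and 1 was at least 2-fold lower (14.7% of all genes were), namely *Ephb1*, an ephrin receptor, at 150 CPM in bin 1 and 72.9 CPM in bin 4. Those higher were *Erbb4* and *Robo1* (611 to 2918 CPM), *Nrp1* (53.7 to 301 CPM) and *Nrp2* (18.9 to 72.9 CPM). *Erbb4* was highest in bin 3 (459, 1404, 2175 and 1545 CPM). *Unc5d* stood at 85.7 CPM in bin 1 and 702 CPM in bin 4. Of 11 cell cycle genes, 9 were at least 2-fold lower with a median fold of 0.123, as with *Top2a* (445, 386, 172 and 33.8 CPM) and *Ccnd1* (371 to 25.7 CPM). Of 8 subpallial neurogenic genes, 5 were, with *Olig2* at 47.2 CPM in bin 1 and no UMI in bin 4. Of 9 maturation genes, 7 were at least 2-fold higher, as were 3 of 4 genes of GABA transport and metabolism, including *Slc32a1* (51.6 to 172 CPM). The 9 measured MGE transcription factor genes split, with 3 at least 2-fold higher (*Lhx8*, *Gbx1* and *Gbx2*) and 2 lower, and *Sox6* stood at 682, 1002, 722 and 359 CPM. *Meis2* stood at 617, 322, 157 and 108 CPM. The median fold over all genes between these bins was 0.930.

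**Figure D3:**
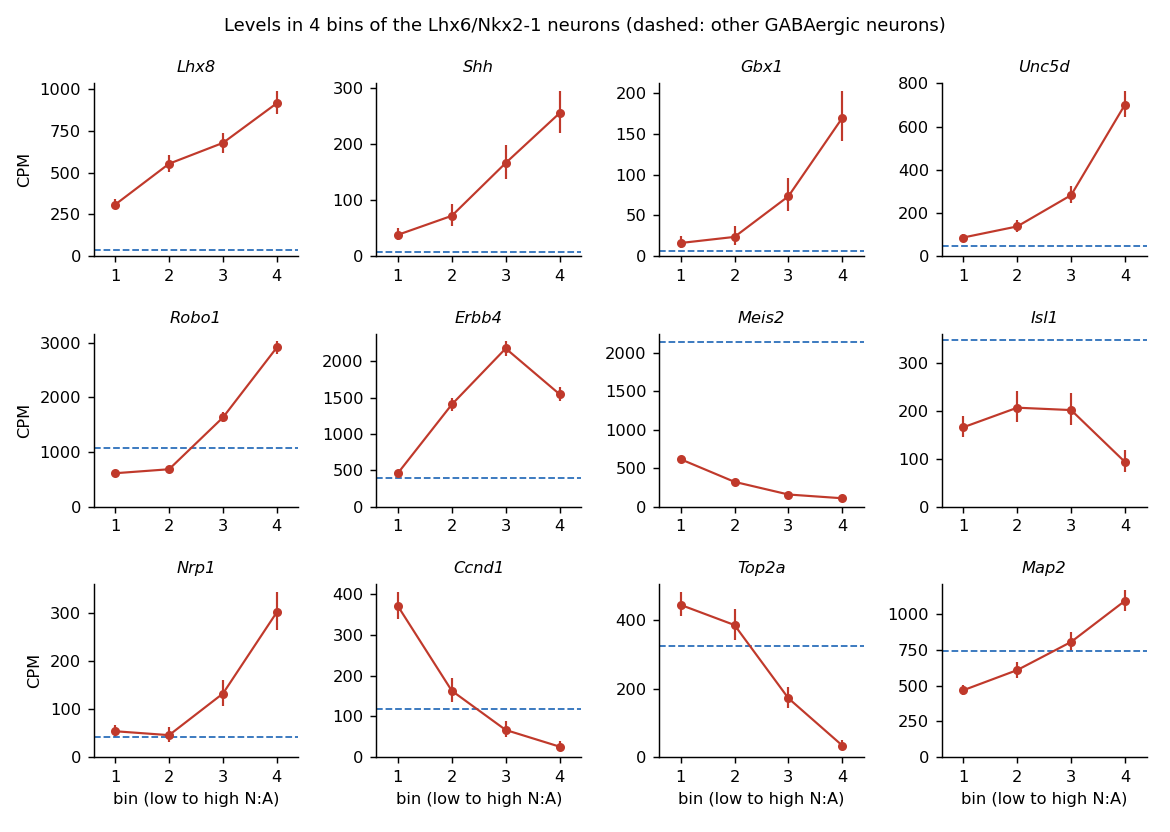
CPM with exact Poisson 95% intervals (vertical axes from 0, a scale of its own for each gene) of 12 genes in 4 equal bins of the *Lhx6*/*Nkx2-1* neurons ordered by log2((N + 1)/(A + 1)), with the level in other GABAergic neurons as a dashed line. *Lhx8*, *Shh*, *Gbx1*, *Unc5d*, *Robo1*, *Nrp1* and *Map2* are highest in bin 4, *Erbb4* peaks in bin 3 at 2175 CPM, and *Meis2*, *Ccnd1* and *Top2a* are lowest in bin 4.

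Neurons with and without *Lhx6* differed beside their shared genes. The 234 neurons with a UMI of *Lhx6* were compared with the 110 that had none but held at least 2 UMIs of *Nkx2-1*, which left out the 45 whose *Nkx2-1* rested on 1 UMI. Of 7922 genes, 86 (1.09%) were at least 2-fold higher and 144 (1.82%) at least 2-fold lower in the neurons with *Lhx6*, and with thinned counts 67 and 39 were. Their median depths were 7216 UMIs where both genes were detected, 6609 with *Lhx6* alone and 7608 without *Lhx6*. They also differed along the measure that defined the bins, with a median of 2.52, 2.94 and 2.1, and *Olig2* and *Meis2* were among the genes that were highest in bin 1. The part of this difference in the folds below was not tested.

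*Erbb4* stood at 2672 CPM in neurons with *Lhx6* alone, 1464 CPM in those with both, and 434 CPM in those without *Lhx6*. The fold between neurons with and without *Lhx6* was 4.05 (3.69 to 4.45), and 4.90 (4.4 to 5.47) without the Scrublet doublets. *Calb1* stood at 67.6 against 6.75 CPM (fold 10.0, 4.95 to 23.7), *Nxph1*, which encodes a secreted ligand of neurexins, at 283 against 36.3 CPM (fold 7.80, 5.72 to 10.9), *Sox6* at 891 against 431 CPM (fold 2.07), *Npy* at 29.7 against 11 CPM (fold 2.71) and *Pcdh9* at 560 against 159 CPM (fold 3.53). In the other direction, *Isl1* stood at 45.2 CPM with *Lhx6* alone, 100 CPM with both and 266 CPM without *Lhx6*, a fold of 0.327 (0.271 to 0.394), and its share of cells was 12.1%, 33.0% and 67.3%. *Six3* (fold 0.408), *Slit2* (fold 0.406), *Otx2* (fold 0.277), *Olig2* (fold 0.182) and *Meis2* (fold 0.339) were lower with *Lhx6* too. *Lhx8*, in contrast, was detected in 84.5% of neurons with *Lhx6* alone, 95.5% with both and 74.5% without *Lhx6*, and *Gbx1* stood at 85.4 against 23.6 CPM. All 5 *Dlx* genes stayed within 2-fold, with a median of 1.24 against 0.977 over all genes.

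**Figure D4:**
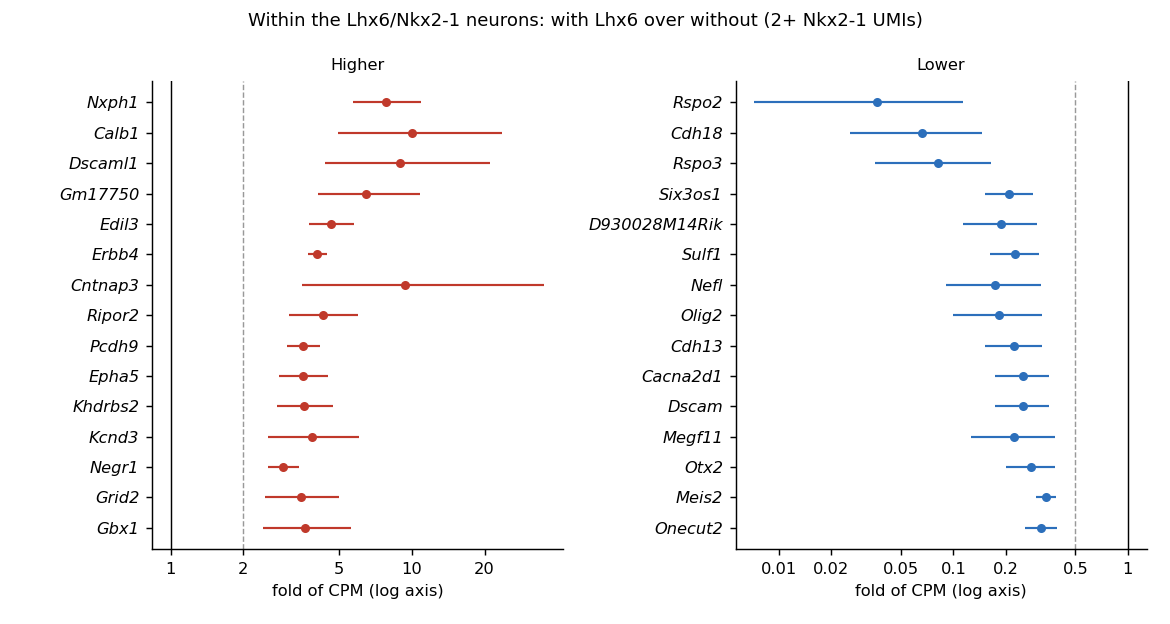
Folds of CPM (log axis) with exact 95% counting intervals for the 15 highest and 15 lowest genes in *Lhx6*/*Nkx2-1* neurons with a UMI of *Lhx6* (234 cells) over those without *Lhx6* and with 2 or more UMIs of *Nkx2-1* (110 cells); the solid line marks 1 and the dashed lines 2 and 0.5. *Nxph1*, *Calb1* and *Erbb4* (fold 4.05) are among the highest, and *Rspo2*, *Cdh18*, *Rspo3* and *Meis2* (fold 0.339) among the lowest.

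Some of these folds rested on few cells. *Rspo2* and *Rspo3*, which encode activators of Wnt signalling, stood at 39.7 and 53.2 CPM without *Lhx6* but in 5.45% and 8.18% of those cells, against 1.44 and 4.32 CPM with it. Without the Scrublet doublets, *Rspo2* stood at 13.3 against 1.23 CPM. Globin genes moved with the split as well, with 6 of 7 at least 2-fold higher in neurons with *Lhx6* (1.09% of all genes were). *Hba-x* stood at 2092 against 812 CPM, and at 1010 against 812 CPM (fold 1.24) without 3 cells, of which 1 neuron with *Lhx6* drew at least 10% of its 32544 UMIs from globin genes and 2 held at least 5 macrophage UMIs. Without these cells 85 genes were higher and 138 lower.

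*Lhx8* was detected in 329 of the *Lhx6*/*Nkx2-1* neurons and missed in 60, with a median depth of 6958 and 10311 UMIs. Neurons without *Lhx8* held more *Meis2* (1098 against 161 CPM, in 75.0% against 30.1% of cells), *Ebf1* (283 against 22.7 CPM) and *Zfp503* (45 against 5.24 CPM), and Scrublet marked 21.7% of them against 8.51% of those with *Lhx8*. *Shh* was detected in 46.8% of neurons with *Lhx8* (41.3 to 52.4%) and 11.7% of those without (4.82 to 22.6%), and with thinned counts in 41.1% and 6.17%. *Gbx1* was detected in 50.3% of neurons with *Shh* and 10.5% of neurons without it, and in 37.2% and 9.09% after thinning. *Lhx8*, *Shh* and *Gbx1* thus fell in overlapping sets of cells, which also share their place in the later bins. Among the other GABAergic neurons, 39 without *Lhx6*, *Nkx2-1* and *Tbr1* held *Lhx8*, with *Isl1* at 337 CPM, *Meis2* at 1445 CPM and *Erbb4* at 677 CPM, between the levels of both groups for *Meis2* and *Erbb4*.

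The septal explants gave a library that the rule had not used. There, 34 of 197 GABAergic neurons (17.3%, 12.3 to 23.3%) met the rule, of which 28 held *Nkx2-1* without *Lhx6*, 5 held both and 1 held *Lhx6* alone. Their median depth was 8859 UMIs against 11229 in the other 163. The kit and software differed between the libraries, so that levels are compared within each library only. Of 5646 genes, 57 (1.01%) were at least 2-fold higher and 169 (2.99%) at least 2-fold lower. With 34 cells, most of these calls rested on few UMIs.

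*Lhx8* stood in the septal explants at 685 against 15.8 CPM, a fold of 43.4 (30.0 to 64.8), with a UMI in 79.4% against 14.1% of cells. *Mbip* stood at 237 against 59.1 CPM (fold 4.01, 3.01 to 5.33) and *Lmo1* at 121 against 25.6 CPM (fold 4.73, 3.1 to 7.2). On the lower side, *Meis2* stood at 151 against 491 CPM (fold 0.307, 0.230 to 0.402) and *Pax6* at 32.3 against 210 CPM (fold 0.154, 0.0788 to 0.271), while *Isl1* stood at 426 against 510 CPM, in 94.1% of the *Lhx6*/*Nkx2-1* neurons. *Shh*, *Gbx1* and *Gbx2* had no UMI in either group of the septal explants. The sum of UMIs of these 34 neurons was 370957. Of the 15 genes with the highest folds in the telencephalic vesicle, 2 reached 20 UMIs in the septal explants (*Lhx8* and *Mbip*) and both had folds above 1, and of the 15 lowest 7 did, all with folds below 1. For *Tmem163* (0.951), *G630016G05Rik* (0.746) and *Lhx9* (0.608) among these 7 the interval held 1. Those of the 15 lowest that fell under 20 UMIs went both ways. *Ebf1* had 3 against 13 UMIs (fold 1.26, 0.231 to 4.59), *Zfp503* 2 against 8 (fold 1.37) and *Tac1* 3 against 0. *Sema3a* (1 against 9), *Slc17a6* (0 against 7) and *P2ry14* (0 against 1) had folds below 1, and *Chrm3* and *Aldh1a3* had no UMI. The lower level of *Ebf1* was thus not seen in the septal explants. Of 18 genes at least 2-fold higher in the telencephalic vesicle and measured in both libraries, 14 (77.8%) were above 1 in the septal explants, where 48.7% of all 5590 genes were, and 2 were at least 2-fold higher. Of 26 genes at least 2-fold lower, 23 (88.5%) were below 1 against 51.3% of all genes, and 9 were at least 2-fold lower. The reporter *eYFP* was detected in 25 of the 34 neurons and in 122 of the other 163, and the tdTomato sequence in 3 and 5.

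**Figure D5:**
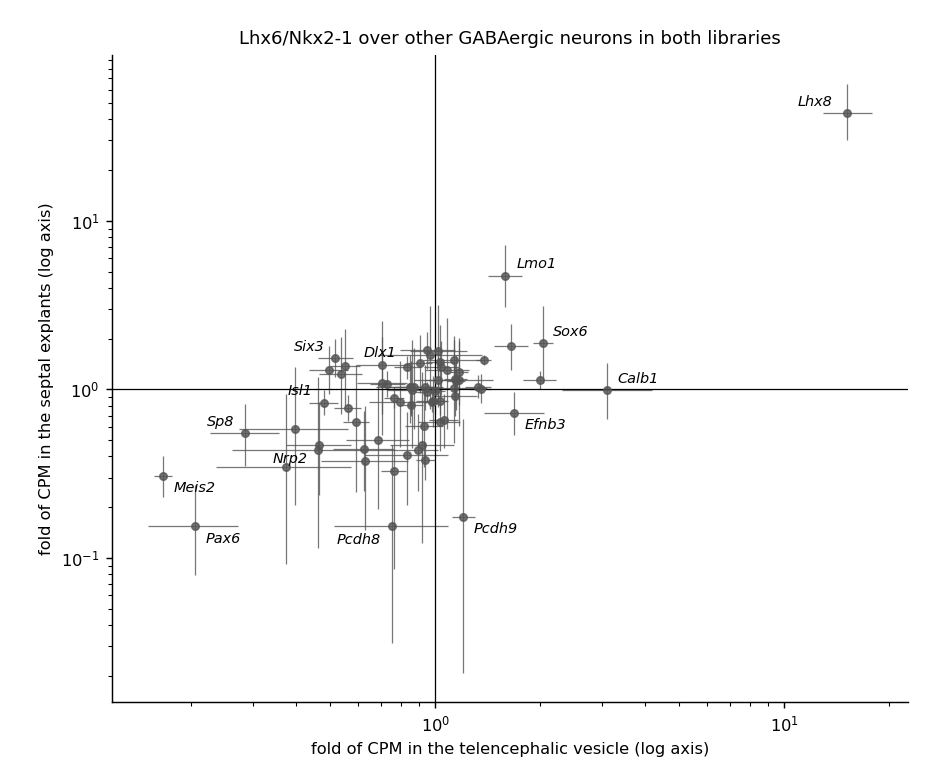
Folds of CPM (log axes) with exact 95% counting intervals, *Lhx6*/*Nkx2-1* neurons over other GABAergic neurons, in the telencephalic vesicle (horizontal) and the septal explants (vertical), for 69 genes of the gene lists with at least 50 UMIs in each library. *Lhx8* lies at the top right (15.1 and 43.4), *Meis2* and *Pax6* at the lower left, *Six3* at the upper left and *Pcdh9* and *Efnb3* at the lower right, and 47 of the 69 genes lie on the same side of 1 in both libraries. No share over all genes is given beside this count, which is description only.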

How the data were processed

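Counts, as the authors deposited them, are UMIs per gene and barcode without normalisation. Per the labels and methods they were made with Cell Ranger 7.1.0 and mm10 (telencephalic vesicle, kit v3.1, about 20000 cells loaded) and Cell Ranger 2.1.1 and mm10 with reporter sequences (septal explants, kit v2). Whether intronic reads were counted is not given in the sources used here. The libraries held 194821794 and 83103280 UMIs, with medians of 8503 and 12722 per barcode, and shared 1 barcode, which was not among the neurons described.

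The members of the group and the gene lists were chosen with earlier results of these data known. UMIs were summed per group and scaled to CPM, folds have exact conditional 95% intervals, shares exact Clopper-Pearson and levels exact Poisson intervals, and a count of 0 allows up to 3 counts. Cells are not replicates, so that no test was made, and a gene was called past a fold of 2 among genes with at least 50 UMIs. The named genes are those of the lists and the 15 highest and 15 lowest by the interval bound nearest 1, with a UMI in at least 5% of the cells of the higher group. Thinning drew 4500 UMIs per cell without replacement, leaving out 26 shallower *Lhx6*/*Nkx2-1* neurons and 17 others. Non-neural cells had N no larger than A and at least 10% globin, 5 endothelial, 5 macrophage or 20 mesenchyme UMIs. Scrublet was run in scanpy 1.11.5 at an expected rate of 9.2%. Scripts ran on scipy 1.17.1, numpy 2.4.6 and pandas 2.3.3 under Python 3.11.15, and figures were drawn with matplotlib 3.10.9. The fold intervals were tested on data simulated with counting error alone, which cannot show how they hold with a spread between cells. Gene identifiers matched GENCODE M21 for 32158 of 32286 features. Some genes that entered the counts are not reported here by name.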

Additional observations from a re-analysis of the deposited data

Results flagged for a closer look

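The feature list of the telencephalic vesicle library holds a *LacZ* sequence, and 11 of its UMIs lay in 9 of 14283 barcodes, although the embryos are labelled wild-type. None of the 389 *Lhx6*/*Nkx2-1* neurons held such a UMI.

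Among genes of the lists and those with the highest and lowest folds, with at least 50 UMIs in each library, 4 had a fold of *Lhx6*/*Nkx2-1* neurons over other GABAergic neurons on opposite sides of 1 in the 2 libraries, with both intervals clear of 1, and the difference was not tested. *Dlx1* stood at 0.833 in the telencephalic vesicle and 1.35 in the septal explants. *Six3* stood at 0.518 and 1.54, where it was detected in 76.5% of the 34 septal neurons. *Efnb3*, which encodes an ephrin ligand, stood at 1.68 and 0.726. *Pcdh9* stood at 1.2 and 0.176, with 2 UMIs in the 34 septal neurons. Its fold in the telencephalic vesicle was 0.870 with rule and counts thinned to 4500 UMIs per cell, on the same side of 1 as in the septal explants. In telencephalic cells with a Y-linked UMI and no *Xist* UMI its fold was 2.56, on the other side of 1. *Epha5*, which is on no list, stood at 1.19 (1.07 to 1.32) and 0.221 (0.0591 to 0.584). Kit, software, age, dissected tissue and the Cre and reporter alleles of the embryos differ between the libraries and cannot be told apart.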

How the results depend on the processing

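Of 54 named genes past 2-fold, 632 of 700 values under 13 alternatives stayed past 2-fold, and 15 turned direction. Genes within 2-fold turned as well, among them *Olig2* (0.907) and *Pcdh9* (0.870) with rule and counts thinned and *Nr2f2* (1.04) without the *Tbr1* criterion. Without the *Tbr1* criterion the folds of *Slc17a6* (1.90), *Tmem163* (1.56), *Nrn1* (1.04), *Calb2* (4.33), *Neurod1* (1.84), *Eomes* (1.35), *Lhx1* (3.79) and *Fezf1* (1.14) turned, which the construction shows, since 19 cells with *Tbr1* then changed group. Against other GABAergic neurons without *Lhx6*, *Nkx2-1* and *Tbr1*, *Tmem163* (1.37) and *Lhx1* (3.89) did, and with rule and counts thinned to 4500 UMIs, *Slc17a6* (1.04), *Calb2* (3.71) and *Fezf1* (1.12). In cells with a Y-linked UMI and no *Xist* UMI, *Nrp2* (1.07) and *Fezf1* (1.33) turned, and the cause was not tested. The number of neurons was 254 and their share 37.2% with the rule on thinned counts, 36.2% with at least 2 UMIs of *Lhx6* and *Nkx2-1*, 237 in cells with *Xist* and no Y-linked UMI, and 79 (36.7%, with 98 genes lower) in cells with a Y-linked UMI and no *Xist*. A minimum of 20 UMIs per gene gave 261 genes higher and 334 lower, a minimum of 200 gave 60 and 66, and a fold of 1.5 gave 422 and 438. Between bins 4 and 1, 537 genes were lower without Scrublet doublets, and 320 were higher and 264 lower with thinned counts. Between neurons with and without *Lhx6*, 39 were lower with thinned counts, of fewer genes tested. In the septal explants a minimum of 200 UMIs left 4 higher and 11 lower. Removal of cells with globin or macrophage RNA, the settings for bins and *Lhx6* and the septal minimum were chosen after seeing the data. No paired analysis was possible because each tissue has 1 library. Depth limits weakly expressed genes such as *Cxcr4* and *Gli1*, and 34 septal neurons limit that comparison.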

Other observations

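Further genes differed between bin 4 and bin 1 of the *Lhx6*/*Nkx2-1* neurons. The highest fold of bin 4 over bin 1, by the interval bound nearest 1, was that of *Csmd3*, which encodes a large membrane protein with CUB and Sushi domains, at 313 against 21.1 CPM (fold 14.9, 10.1 to 22.7). *Dscaml1*, an adhesion molecule, stood at 111 against 7.99 CPM, *Plxna4*, a semaphorin co-receptor, at 188 against 18.9 CPM, and *Cacna2d3*, a calcium channel subunit, at 534 against 63.9 CPM. On the lower side, *Adgrv1*, an adhesion receptor, had 291 UMIs in bin 1 and none in bin 4, and *Fgf17*, a growth factor of the rostral patterning centre, had 101 and none but lay in 12.2% of bin 1 cells. *Adgrv1* stood at 207 CPM and *Fgf17* at 37.2 CPM in bin 1 without the Scrublet doublets.

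In the neurons with *Lhx6*, *Edil3* (377 against 81.8 CPM, fold 4.61), *Ripor2* (154 against 36.3 CPM), *Epha5* (263 against 74.2 CPM) and *Kcnd3*, a potassium channel (84.4 against 21.9 CPM), were higher than in those without. *Six3os1* (27.3 against 131 CPM), *Sulf1*, a sulfatase that edits heparan sulfate (26.9 against 119 CPM), and *Onecut2* (69.1 against 218 CPM) were lower.

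Of the 389 neurons, 237 held *Xist* and no Y-linked UMI, 79 a Y-linked UMI and no *Xist*, 48 both and 25 neither. The share of *Lhx6*/*Nkx2-1* neurons among GABAergic neurons was 46.8% in the first class and 36.7% in the second.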
